A study of Mus musculus and Rattus norvegicus with 6 samples.

Results

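MicroRNAs (miRNAs) from the introns of 7 genes used by neurons were followed through mouse and rat retina. The hairpins are miR-139, miR-326, miR-335, miR-338, miR-342, miR-488 and miR-598, and the arms named for them at the outset were mmu-miR-139-5p, mmu-miR-326-3p, mmu-miR-335-5p, mmu-miR-338-3p, mmu-miR-342-3p, mmu-miR-488-3p and mmu-miR-598-3p (species prefixes are dropped below). Every row of the deposited tables with 1 of these 7 numbers was taken, whichever arm of the hairpin it named. That gave 14 of the 1915 mouse rows and 13 of the 764 rat rows. The 6 libraries came from retinas of wild-type C57BL/6 mice and wild-type Sprague Dawley rats, 9 weeks old in both cases, with 3 libraries per species named m1, m3, m4 and r1, r2, r4 after their count columns. Series and labels set the question of which miRNAs the retina of each rodent holds. No source used here says that each library came from a separate animal, so p-values speak only of library-to-library spread, part of which may be technical. Strain, annotation and any library batch change with the species and cannot be told apart from it.

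A hairpin inside an intron is usually copied together with its host gene, cut free of the host transcript and trimmed to a short duplex. One strand of that duplex, the 5p or the 3p arm, is mostly kept in the Argonaute protein and the other is mostly lost. The kept strand pairs with messenger RNAs chiefly through bases 2 to 8, its seed, and lowers their output. Levels of such a miRNA are therefore often read beside those of its host, although processing and decay can separate them; no host messenger RNA was measured in these small RNA libraries.

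In GENCODE M21 (GRCm38, an annotation used here only for position, since no build behind the counts was named) all 7 mouse hairpins lay inside the gene named for them, on its strand. None of them overlapped an exon of any annotated transcript of that gene (0 in each case). The hairpin of miR-139 lay in intron 2 of Pde2a, a phosphodiesterase that breaks down cyclic nucleotides, and that of miR-326 in intron 1 of Arrb1, the beta-arrestin that silences G-protein-coupled receptors. Both are on chromosome 7, 1.92 Mb apart. The hairpin of miR-335 was in intron 2 of Mest, an imprinted gene expressed from the paternal copy. That of miR-338 was in intron 7 of Aatk, a kinase gene of neurons, and that of miR-342 in intron 3 of Evl, a regulator of actin filaments. Intron 5 of Astn1, a gene for the guidance of migrating neurons along glia, held miR-488, and intron 1 of Xkr6 held miR-598. The introns ran from 1316 bases (Mest) and 1724 bases (Aatk) to 190922 bases (Xkr6), in the transcripts Mest-211, Aatk-203 and Xkr6-201. The hairpin of miR-488 began 155 bases after the upstream exon of Astn1-201, and that of miR-598 began 119904 bases after its upstream exon.

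The mouse mature sequences are from RefSeq (GRCm38.p6), which matched 12 of the 14 mouse names. They are shown 5′ to 3′ with the seed in capitals, the dominant arm of 6 hairpins first and then the lesser arms of the 3 hairpins whose arms the results turn on.
miR-139-5p: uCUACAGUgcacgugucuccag
miR-326-3p: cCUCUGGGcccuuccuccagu
miR-335-3p: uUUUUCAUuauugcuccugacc
miR-338-5p: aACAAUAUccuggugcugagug
miR-342-3p: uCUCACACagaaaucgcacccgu
miR-488-3p: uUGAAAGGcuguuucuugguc
miR-335-5p: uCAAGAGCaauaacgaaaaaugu
miR-338-3p: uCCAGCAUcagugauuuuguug
miR-342-5p: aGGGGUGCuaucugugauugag
The 12 matched arms, which leave out both arms of miR-598, had 12 different seeds. Among them 7 began with U, against 40.9% of the 1679 mature names in that RefSeq table. The dominant arms lie at chr7:101475382-101475403 (+) for miR-139-5p, chr7:99552328-99552348 (+) for miR-326-3p, chr6:30741354-30741375 (+) for miR-335-3p, chr11:120014816-120014837 (-) for miR-338-5p, chr12:108658680-108658702 (+) for miR-342-3p and chr1:158505689-158505709 (+) for miR-488-3p.

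Depth was 24169628 to 30514632 counts per library, so that 3 counts, the limit taken for a name at 0, came to between 0.0983 and 0.124 CPM. In this unit each library's counts are brought to the same total, on either of a pair of scales. Library CPM divides by all counts of a library. Scaled CPM divides by the counts on the 542 names that both tables share, after TMM factors, and serves the comparison between species. These factors were 0.806 in r1, 1.29 in r2, 1.32 in r4 and 0.864 to 0.967 in mouse. Levels in r1 relative to r2 and r4 are therefore higher in scaled than in library CPM. A list of retinal miRNAs held miR-183, miR-96, miR-182, miR-124 and miR-9. Its names summed to 509793 to 535904 library CPM in mouse (10 names) and 374703 to 494878 in rat (7 names). Only 6 names, the arms of miR-183, miR-96 and miR-124, were shared, so the sums do not cover the same products. The rat sum therefore does not hold both miR-182 and miR-9. In the species test given below, 3 of these 6 were lower in rat and the others did not differ detectably. Sums of lists of other cell types also differed, but did not cover the same names in both tables. Vessel and mesenchyme summed to 4336 to 5180 in mouse and 7673 to 8115 in rat (10 names each). In the same test, 2 of its 7 tested names were higher in rat, 2 lower and 3 neither. Red blood cells summed to 10.4 to 12.8 (3 names) and 162 to 296 (5 names). Yet miR-144-5p was lower in rat and miR-144-3p did not differ detectably. The name miR-451a averaged 10.7 library CPM in mouse, and miR-451-5p 2.01 in rat. Muscle summed to 642 to 883 (7 names) and 44.5 to 67.03 (6 names). Of its 2 tested names, miR-133a-3p was lower in rat and miR-206-3p did not differ detectably. The part of these cells in the differences between species was not tested. Rat library r1 stood apart from r2 and r4. The list for lens, cornea and epithelium (5 names in the rat table, 0 of them at 0 in all libraries) summed to 9403 library CPM in r1, against 1804 in r2 and 1179 in r4, and nearly all of it was miR-184, at 9369 in r1. Values without r1 stand beside the results that it moves; the part of those other cells in it was not tested.

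Together the 7 hairpins took 0.240% ± 0.00753 of the counts of a mouse library and 0.194% ± 0.0316 of those of a rat library (SD, n = 3 each). The rat shares ran from 0.157% in r1 to 0.214%, and the mouse shares from 0.232% to 0.245%, so every mouse library was above every rat library in this sum. The rat row for miR-335 names no arm, whereas the mouse table has both, so the sums do not cover the same products.

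The product of Xkr6, miR-598-3p, was the most abundant member in both retinas, with 774 ± 35.8 library CPM for mouse and 838 ± 210 for rat (SD, n = 3 for both). It ranked 60 among the mouse names and 67 among the rat names. In mouse the order went on with miR-335-3p (573 ± 25.2), miR-335-5p (370 ± 16.3) and miR-342-3p (363 ± 42.4). Then came miR-488-3p (116 ± 3.95), miR-139-5p (84.3 ± 4.38), miR-338-5p (70.0 ± 4.28), miR-338-3p (21.6 ± 0.372), miR-342-5p (12.5 ± 1.22), miR-326-3p (10.5 ± 0.564) and miR-139-3p (6.33 ± 0.857; SD, n = 3 for each). Of the 13 neighbouring pairs in this mouse order 12 did not overlap in any library, and the exception was miR-335-5p with miR-342-3p.

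In rat the order differed. After miR-598-3p came miR-342-3p (437 ± 24.99 library CPM), miR-139-5p (227 ± 30.2), the row miR-335 (189 ± 57.5) and miR-488-3p (105 ± 19.8; SD, n = 3 for each). Below them were miR-338-5p (74.4 ± 37.7), miR-326-3p (23.7 ± 8.30), miR-338-3p (23.0 ± 10.3), miR-139-3p (13.2 ± 1.75) and miR-342-5p (7.21 ± 0.843). Only 7 of the 12 neighbouring pairs were apart in every library, and the pairs miR-139-5p with miR-335, miR-488-3p with miR-338-5p, miR-326-3p with miR-338-3p, miR-338-3p with miR-139-3p and miR-488-5p with miR-598-5p overlapped. Without r1, in the order of r2 and r4, 8 of 12 were apart. The spread between libraries was wider in rat. Over member names of at least 1 library CPM the median coefficient of variation was 5.27% in mouse (12 names) and 22.0% in rat (10 names), beside 7.84% and 30.0% over all names of that level. Without r1 the rat median was 8.16% for members and 7.49% for all names.

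**Figure D1:**
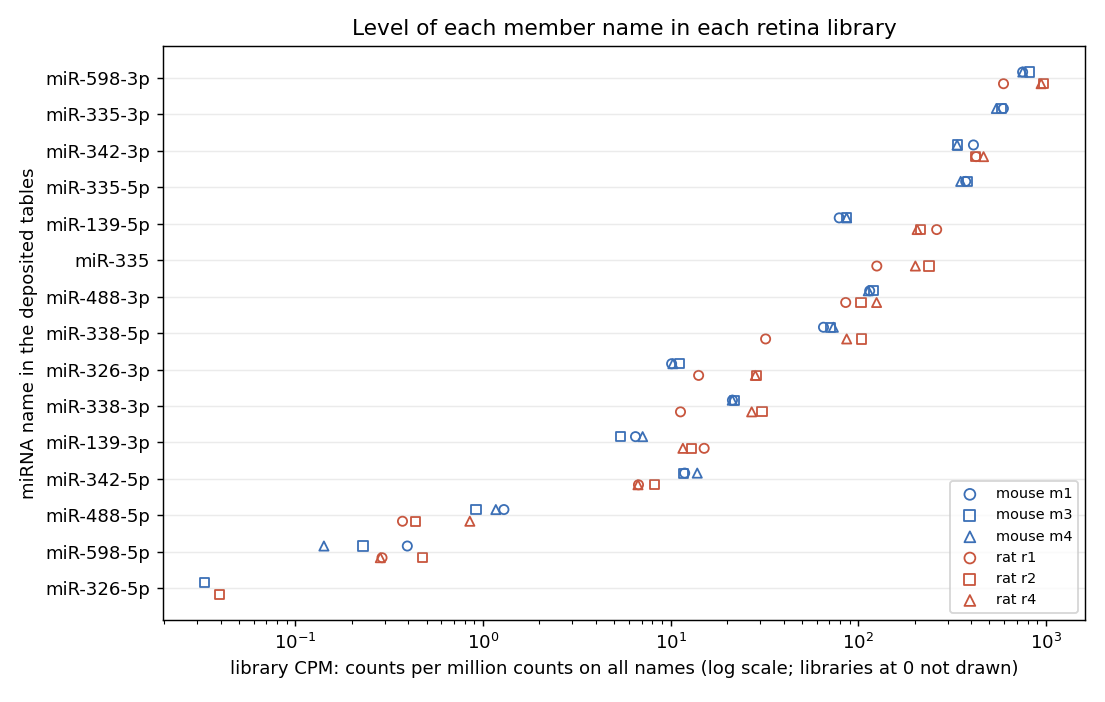
Level of each member name in each of the 6 libraries, as library CPM on a log axis, with mouse in blue and rat in red. Mouse symbols for a name lie close together, with miR-598-3p near 774 at the top, while in rat the circles of r1 lie left of r2 and r4 for miR-598-3p, miR-335, miR-338 and miR-326-3p and right of them for miR-139.

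Between the species, 10 of the 12 member arms with the same name in both tables had enough counts for the test; miR-326-5p and miR-598-5p did not. Higher levels in rat were found for miR-139-5p, miR-139-3p and miR-326-3p, and lower levels for miR-342-5p and miR-488-5p, in edgeR's quasi-likelihood test at a Benjamini-Hochberg adjusted p under 0.05 over 398 names (called). The other 5, among them the dominant arms of miR-338, miR-342, miR-488 and miR-598, were not called. The background was 50% of the 398 names called, 25.6% higher and 24.4% lower in rat, so a count of 5 in 10 is the same share as over all names. The libraries of the species did not overlap for 5 of the 10 arms, the called ones, beside 59.8% of all names tested. The median log2 difference (rat minus mouse) was -0.16 over the 10 arms and 0.08 over all names. Without r1 these medians were -0.04 (11 arms) and 0.09. In bulk tissue, a change in the share of cells that make a miRNA and a change in its amount per cell cannot be told apart.

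The arm miR-139-5p, from the Pde2a intron and known for restraining growth and migration in tumour cells, was one of the arms called higher in rat. Its scaled CPM was 128 in m1, 137 in m3 and 124 in m4, against 511 in r1, 239 in r2 and 231 in r4. Each rat library lay above each mouse library, and on this scale r1 lay far above r2 and r4. In library CPM the gap was smaller, with 262 in r1, 214 in r2 and 206 in r4. The log2 difference was 1.33 ± 0.30 (SE; edgeR adjusted p = 0.00542), or 2.52-fold. Without r1 it was 0.86 ± 0.07 (edgeR adjusted p = 1.87e-06), still called but smaller than the 0.98 of miR-326-3p in that fit. Its partner miR-139-3p went from 8.51 to 10.5 scaled CPM over the mouse libraries to 29.4, 14.4 and 13.03 in r1, r2 and r4, again with no overlap. That log2 difference was 0.95 ± 0.32 (edgeR adjusted p = 0.0329) and 0.49 ± 0.14 without r1 (adjusted p = 0.0111). The call of miR-139-3p was lost without m1, m3 or m4, with adjusted p of 0.0722, 0.116 and 0.0932 and log2 differences of 1.02, 0.86 and 0.999.

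The arm miR-326-3p, from the Arrb1 intron and best known for lowering Notch and Hedgehog signalling, was the other dominant arm called higher in rat. Scaled CPM was 16.3, 17.6 and 14.7 in m1, m3 and m4 and 27.5, 32.0 and 31.7 in r1, r2 and r4. On this scale all 3 rat libraries lay above all 3 mouse libraries and close to each other. In library CPM r1 was at 14.1, well below 28.7 in r2 and 28.3 in r4, though above the 10.1 to 11.2 of mouse. The log2 difference was 0.91 ± 0.17 (edgeR adjusted p = 0.00225), a 1.88-fold higher level, and 0.98 ± 0.10 without r1 (adjusted p = 9.79e-06). The ratio of the miRNAs of Pde2a and Arrb1 differed in 1 library. The count of miR-139-5p over that of miR-326-3p was 7.78 to 8.43 in mouse, 7.47 in r2 and 7.29 in r4, but 18.6 in r1.

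For miR-335, of the Mest intron, the comparison depends on the name. For this miRNA, which has been studied as a suppressor of metastasis, the rat table has a single row without an arm. Its library CPM was 126 in r1, 238 in r2 and 202 in r4. In mouse miR-335-5p was at 374, 384 and 352 and miR-335-3p at 594, 579 and 545 in m1, m3 and m4, so that the rat row was below either mouse arm in every library. This row could not enter the test by exact name. Joined to the mouse 5p arm in a relaxed name match (440 names tested, 52.3% called and 26.8% lower in rat), the log2 difference was -1.28 ± 0.11 (edgeR adjusted p = 8.01e-05). Joined to the 3p arm it was -1.91 ± 0.12 (adjusted p = 1.24e-05), and against the sum of both arms -2.63 ± 0.12 (adjusted p = 3.15e-06). Without r1 these were -1.24, -1.87 and -2.59. Which of the 3 is the right match depends on the rat sequence behind the row, which was not analysed here.

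The 2 arms of miR-338, a miRNA known for driving oligodendrocyte maturation and also made in neurons, did not differ detectably between the species. Scaled CPM of miR-338-5p was 105, 112 and 105 in m1, m3 and m4, and 62.5, 116 and 97.3 in r1, r2 and r4. The rat libraries lay on both sides of the mouse libraries, with r1 lowest. The log2 difference was -0.22 with a 95% interval of -0.72 to 0.28 (edgeR adjusted p = 0.442), and -0.01 (-0.21 to 0.19) without r1. For miR-338-3p it was -0.20 (-0.65 to 0.25; adjusted p = 0.442) and -0.04 (-0.25 to 0.17) without r1. The sign of both depended on the scaling: with totals in place of TMM factors they were 0.19 and 0.20, not called. The glial companion of miR-338, miR-219a, was low in both species: its 3 names summed to 8.98 to 11.2 library CPM in mouse and 12.8 to 14.4 in rat.

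The hairpin of miR-3065 lies on the opposite strand at the same place as that of miR-338. The reverse complement of miR-3065-5p shares a run of 21 bases with miR-338-3p, which is 22 bases long, so that reads would be confused if strand were ignored. Counts of miR-3065-5p were 3, 0 and 1 in m1, m3 and m4 and 7, 6 and 14 in r1, r2 and r4, against 595, 671 and 601 of miR-338-3p in mouse and 273, 776 and 763 in rat. The name on the opposite strand thus held few counts in every library.

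The Evl product miR-342-3p, a miRNA also abundant in blood cells and microglia, was not called. Scaled CPM was 664, 535 and 482 in m1, m3 and m4, and 829, 469 and 522 in r1, r2 and r4. On this scale the species overlapped, with r1 the highest library and m1 the highest in mouse. Library CPM of miR-342-3p was 425, 420 and 466 in r1, r2 and r4, all above the 337 to 412 of mouse. Its log2 difference was 0.11 (95% interval -0.42 to 0.65; edgeR adjusted p = 0.717), and it changed sign to -0.17 (-0.42 to 0.08; adjusted p = 0.185) without r1. The list for microglia and leukocytes (miR-223, miR-142, miR-146a and miR-155) summed to 87.3 to 113 library CPM in mouse and 73.8 to 109 in rat, on 6 and 8 names with 1 at 0 in all libraries of each species. The lesser arm behaved otherwise. Scaled CPM of miR-342-5p was 19.2, 18.4 and 19.9 in m1, m3 and m4 and 13.1, 9.14 and 7.51 in r1, r2 and r4. All rat libraries lay below all mouse libraries, with a log2 difference of -0.96 ± 0.23 (edgeR adjusted p = 0.00776) and -1.21 ± 0.14 without r1 (adjusted p = 2.50e-05).

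The Astn1 product miR-488-3p, enriched in brain, had 186, 190 and 162 scaled CPM in m1, m3 and m4 and 167, 116 and 140 in r1, r2 and r4. On this scale only r1 reached into the mouse range. In library CPM r1 was instead the lowest rat library, at 85.8 against 104 in r2 and 125 in r4. The log2 difference was -0.35 ± 0.17 (edgeR adjusted p = 0.129), not called. Without r1 it was -0.48 ± 0.10 (adjusted p = 0.00146) and was called lower in rat. With totals of the shared names in place of TMM factors it was -0.03 (adjusted p = 0.882). Its lesser arm miR-488-5p had 28 to 36 counts in the mouse libraries and 9, 11 and 24 in r1, r2 and r4, close to the limit of the test. That is 1.44 to 2.08 scaled CPM in mouse and 0.486 to 0.954 in rat, without overlap. The log2 difference was -1.25 ± 0.33 (edgeR adjusted p = 0.0123). The call was lost without m1 (-1.08, adjusted p = 0.0565) and with totals of the shared names (-0.89, adjusted p = 0.0939) or of all names (-1.01, adjusted p = 0.0803). Without r1 it stayed, at -1.24 ± 0.35 (adjusted p = 0.0103).

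The most abundant member, miR-598-3p, differed little between the species. Scaled CPM was 1213, 1284 and 1079 in m1, m3 and m4 and 1160, 1087 and 1059 in r1, r2 and r4, with the rat libraries inside or just under the mouse range. The log2 difference was -0.11 with a 95% interval of -0.44 to 0.21 (edgeR adjusted p = 0.540). Without r1 it was -0.15 (-0.29 to -0.01; adjusted p = 0.0534), and with totals of the shared names it was above 0, at 0.22, not called either way.

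**Figure D2:**
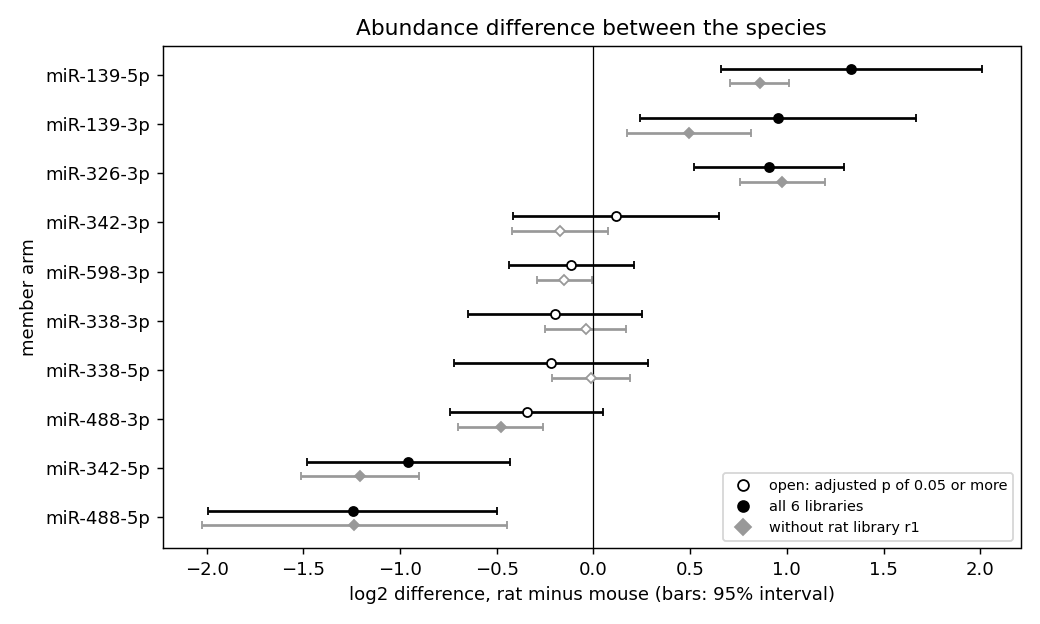
Log2 difference in abundance, rat minus mouse, for the 10 tested member arms with 95% intervals, from all 6 libraries (black) and without rat library r1 (grey); filled symbols have an adjusted p under 0.05. The intervals of miR-139-5p, miR-139-3p and miR-326-3p lie above 0 and those of miR-342-5p and miR-488-5p below 0 in both fits, and miR-488-3p is called only without r1.

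Leaving out r1 changed the calls over all names as well, to 70.9% of 413 names called, 36.6% higher and 34.4% lower in rat. In that fit 11 member arms were tested, of which 3 were higher, 3 lower and 5 not called. The members split in r1 on the library CPM scale, before any scaling between species. Relative to the mean of r2 and r4, r1 held 1.25 times as much miR-139-5p and 1.23 times as much miR-139-3p, 0.960 times as much miR-342-3p, 0.621 times as much miR-598-3p and 0.571 times as much miR-335. It held 0.495 times as much miR-326-3p, 0.391 times as much miR-338-3p and 0.336 times as much miR-338-5p. The median over the 439 rat names of at least 1 library CPM was 0.595, with quartiles of 0.396 and 0.830. Hence miR-598-3p and miR-335 lay near the middle of all names in r1. Both arms of miR-139 and both of miR-342 (miR-342-5p at 0.906) lay above the upper quartile, and both arms of miR-338 below the lower quartile. The ratio of miR-139-5p to miR-338-5p within a library, which no scaling alters, was 1.18 to 1.23 in mouse, 2.05 in r2, 2.37 in r4 and 8.16 in r1.

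**Figure D3:**
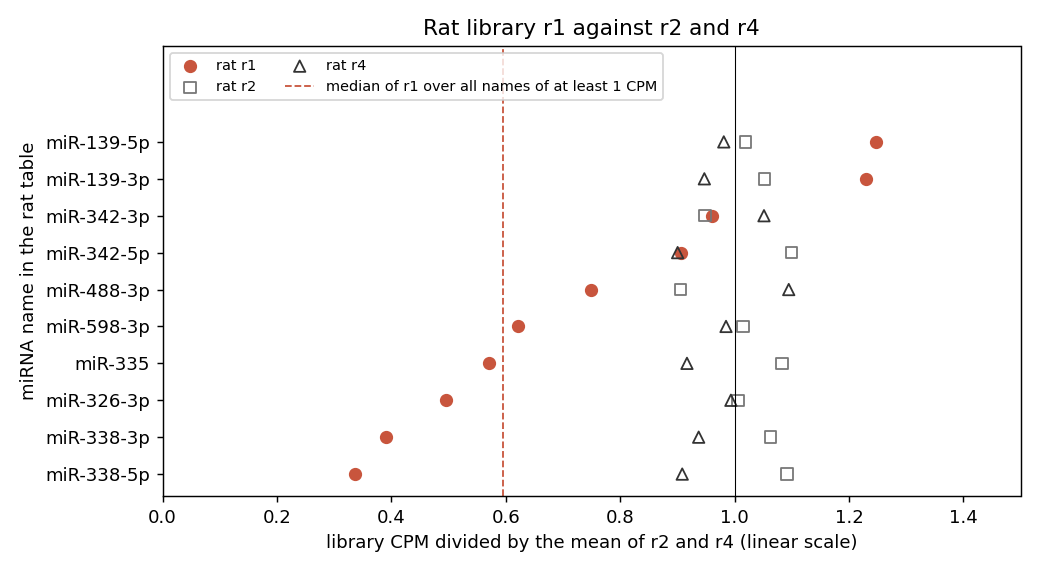
Library CPM of 10 member names in each rat library, divided by the mean of r2 and r4, on a linear axis; the dashed line marks the median of r1 over all names of at least 1 CPM (0.595). Filled circles of r1 run from 0.336 for miR-338-5p to 1.25 for miR-139-5p, while r2 and r4 stay near 1.

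The arms of a hairpin compete within a library, so their ratio needs no scaling between species. In both retinas the 5p arm led in miR-139 and miR-338 and the 3p arm led in miR-326, miR-342, miR-488 and miR-598, as the plot of arm ratios shows for miR-139, miR-338, miR-342 and miR-488. In the mouse table miR-335 was led by the 3p arm. The dominant arm was therefore the same for all 6 hairpins that could be compared. The same held for most of the 169 hairpins tested in both species, by the sign of their mean log2 ratio. Over all hairpins with a sum of at least 150 counts over the libraries of a species, the 5p arm led in 51.3% of 275 in mouse and 51.2% of 213 in rat.

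The arms of miR-335 and miR-338 were the most even. In mouse miR-335-5p held 38.6%, 39.9% and 39.2% of the hairpin's counts in m1, m3 and m4, on 25289 to 29387 counts, with an exact 95% interval of 38.0% to 39.2% in m1. The 3p arm, whose sequence opens with a run of U, was thus the larger product in each mouse library, by 1.55 ± 0.0399 times (SD, n = 3). The 5p arm of miR-338 made up 76.4% ± 1.11 (mouse) and 75.8% ± 1.69 (rat) of its hairpin's counts (SD, n = 3 for both), on 1049 to 3415 counts per library. Seen per library, miR-338-5p had 75.4%, 76.3% and 77.6% in m1, m3 and m4 and 74.0%, 77.3% and 76.2% in r1, r2 and r4. Those ranges overlap almost fully, and the log2 5p to 3p ratio differed by -0.05 (95% interval -0.49 to 0.40; limma adjusted p = 0.889), and by 0.03 without r1 (adjusted p = 0.858). A minor arm of over 20% was found in 16.4% of those mouse hairpins and 22.5% of those rat hairpins.

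The arm ratio of miR-342 was the one called. Its 5p arm held 2.81%, 3.32% and 3.96% of the hairpin's counts in m1, m3 and m4 and 1.56%, 1.91% and 1.42% in r1, r2 and r4. The 3p to 5p ratio averaged 29.3 ± 5.18 over mouse and 61.3 ± 9.21 over rat libraries (SD, n = 3 for both), with no overlap between the species. The log2 5p to 3p ratio was lower in rat by a difference of -1.07 ± 0.23 (SE; limma adjusted p = 0.0194), and -1.04 ± 0.23 without r1 (adjusted p = 0.0249). That is 1 call among the 6 member hairpins tested, a smaller share than the background of 24.3% called of all 169 hairpins tested (16% lower in rat and 8.28% higher). Without r1 it was again 1 of 6, beside 36% of 175. The call was lost without m3, m4 or r4, with adjusted p of 0.0837, 0.0850 and 0.0738 and log2 differences of -1.07, -0.94 and -0.97. Of the arms on their own, miR-342-5p was called lower in rat and miR-342-3p was not called, as given above.

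Another 2 hairpins had arm ratios that did not overlap between the species, without a call. The 5p share of miR-488 was 1.11%, 0.754% and 1.02% in m1, m3 and m4 and 0.432%, 0.418% and 0.674% in r1, r2 and r4. Its log2 difference was -0.91 ± 0.28 (limma adjusted p = 0.0627), and -0.82 ± 0.29 without r1 (adjusted p = 0.0855); without r4 it was called (-1.12, adjusted p = 0.0495). For miR-139 the 5p share was 93.0% ± 0.990 over mouse and 94.5% ± 0.182 over rat libraries (SD, n = 3 for both), with a log2 difference of 0.36 ± 0.20 (limma adjusted p = 0.257), and 0.36 ± 0.17 without r1 (adjusted p = 0.164). Counted without a test, 3 of the 6 member hairpins had species that did not overlap, beside 45.6% of the 169.

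The other lesser arms were near the floor. For miR-598 the 5p arm had 11, 7 and 4 counts in m1, m3 and m4 and 7, 12 and 8 in r1, r2 and r4, against 14388 to 26637 counts of the 3p arm. Pooled within a species, that is 0.0328% of the hairpin's mouse counts (exact 95% interval 0.0205% to 0.0496%) and 0.0411% of its rat counts (0.0271% to 0.0598%). For miR-326 the 5p arm had 1 count in m3, 1 in r2 and 0 elsewhere. It made up 0.109% of 914 mouse counts (exact 95% interval 0.00277% to 0.608%) and 0.0536% of 1865 rat counts (0.00136% to 0.298%). These intervals cover counting error only, since copies made by PCR are not independent. Neither hairpin was called in arm ratio. The log2 difference was 0.42 for miR-598 (95% interval -0.58 to 1.43, limma adjusted p = 0.495). For miR-326 it was -0.94 (-2.35 to 0.47, limma adjusted p = 0.302), where the 5p counts are mostly 0 and the added 0.5 weighs heavily.

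**Figure D4:**
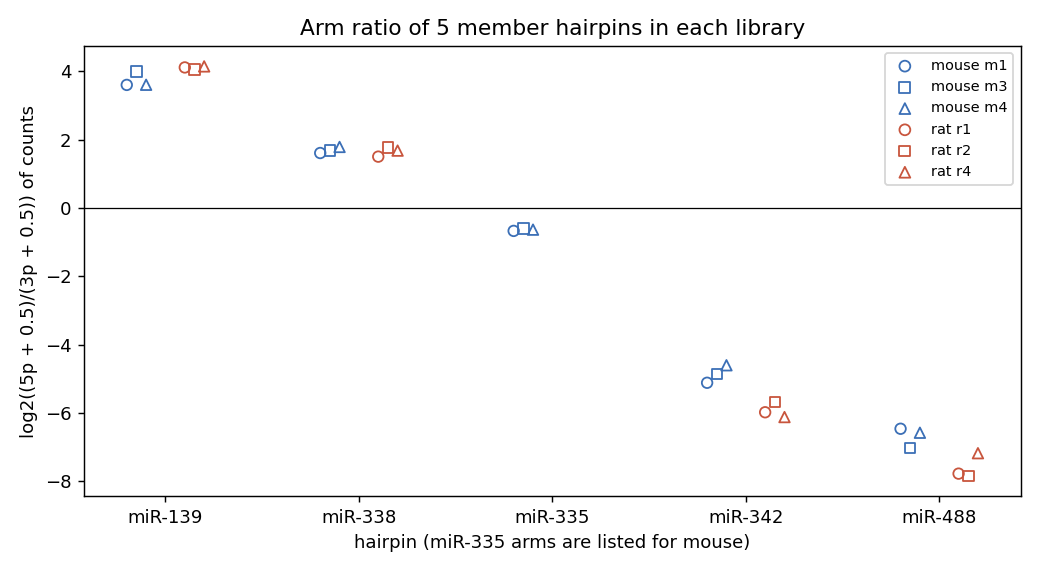
Log2 ratio of 5p to 3p counts, each with 0.5 added, of 5 member hairpins in each library, with mouse in blue and rat in red. The symbols of miR-338 overlap between the species at a log2 ratio near 1.70 in mouse and 1.65 in rat. Those of miR-342 are lower in every rat library than in any mouse library. The hairpins miR-326 and miR-598, with few 5p counts, are not drawn.

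Of the 12 seeds, 1 was shared with a miRNA outside the group. The seed of miR-326-3p, CUCUGGG, is also that of miR-330-5p, from an intron of Eml2 and printed for comparison.
miR-330-5p: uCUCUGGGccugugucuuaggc
In library CPM, miR-330-5p was at 188 ± 13.02 for mouse and 239 ± 31.9 for rat (SD, n = 3 for both). The member was the lesser of the pair, with 5.30% of their summed mean level in mouse and 9.01% in rat. Between the species miR-330-5p was not called (log2 difference 0.16, edgeR adjusted p = 0.464), unlike miR-326-3p; the difference between the pair was not tested. Mouse sequences alone were compared, and the rat values stand under the same names.

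The names whose scaled levels moved most like each dominant arm over the 6 libraries were taken from the 398 tested names, by the root-mean-square difference of log2(scaled CPM + 0.5) after centring. For miR-139-5p they were miR-379-5p (0.10) and miR-455-5p (0.17). For miR-326-3p they were miR-339-3p (0.07) and miR-331-3p (0.09), and for miR-338-5p let-7i-3p (0.06) and miR-652-3p (0.08). For miR-342-3p they were miR-667-5p (0.11) and let-7b-3p (0.12), for miR-488-3p miR-101b-3p (0.13) and miR-133b-3p (0.13), and for miR-598-3p miR-23b-3p (0.04) and miR-300-3p (0.06). The level of miR-133b-3p was only 0.358 to 0.926 scaled CPM, where the added 0.5 flattens differences; its fitted difference was -0.92, against -0.35 for miR-488-3p. No member was among the nearest names of another. The points share the libraries and the scaling, and the likeness is a description.

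A list of other miRNAs in introns of genes used by neurons or retina gave 21 tested names, of which 5 were higher in rat, 5 lower and 11 not called, beside 50% called over all names. Without r1 the numbers were 11, 8 and 6 of 25, beside 70.9%. Its median log2 difference was 0.30, against 0.08 over all names, and without r1 it was 0.13, against 0.09. Its most abundant names were miR-204-5p, in Trpm3 (0.63 ± 0.21, edgeR adjusted p = 0.0345), miR-211-5p, in Trpm1 (0.80 ± 0.20, adjusted p = 0.00866), miR-128-3p, in R3hdm1 and Arpp21 (-1.09 ± 0.18, adjusted p = 0.00111) and miR-151-3p, in Ptk2 (0.62 ± 0.43, adjusted p = 0.268, not called). Without r1 the first 3 stayed called, at 0.40, 0.59 and -1.25. The sign of miR-151-3p turned without r1, to -0.23 ± 0.06 (edgeR adjusted p = 0.00739): its scaled CPM was 1478 to 1628 in mouse and 4558, 1343 and 1347 in r1, r2 and r4. In the mouse annotation 18 of the 19 hairpins found for this list lay in a protein-coding gene on the same strand, the exception being miR-3065. Among miRNAs in introns of broadly used genes, such as miR-26a-5p (0.02 ± 0.16) and miR-103-3p (-0.18 ± 0.15), 7 were higher, 5 lower and 30 not called of 42, beside the same 50%, with a median of 0.14. Without r1 these became 15, 9 and 18, beside 70.9%, with miR-26a-5p at 0.05 (not called) and miR-103-3p at -0.16 (edgeR adjusted p = 0.0482). The median of this list rose to 0.21 in that fit, above the 0.13 of the other list. Of the 27 hairpins found for this list 25 lay in a protein-coding gene on the same strand. Mir30c-2 and Mir16-1 did not, and miR-30c-2-3p and miR-16-5p stayed among the 42. No hairpin was found for miR-301a, so its host was not checked, and both its arms also stayed. Both arms of miR-126a were in this list and in that of vessel and mesenchyme.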

How the data were processed

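Small RNA of dissected retinas, isolated with a miRNeasy kit, was read in 50-base single-end reads, per the labels' protocols, which speak of rat eyes for both species. The deposited values are whole-number counts for each mature miRNA, 1 table per species, with no normalization by the authors. Aligner, miRNA release and the handling of multiply matching reads: not given in the sources used here. Column numbers do not match the sample numbers of the labels, so columns were assigned to a species only.

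Shared names (542, exact apart from the prefix) went through the quasi-likelihood F test of edgeR 4.0.16 (R 4.3.3; low counts removed by filterByExpr, TMM factors, 1 species term) and arm ratios with limma 3.58.1 on log2((5p + 0.5)/(3p + 0.5)) for hairpins of at least 50 counts in every library. P-values were adjusted over all names or hairpins tested. Tested on simulated data, the abundance test recovered 86.4% of 2-fold and 99.8% of 4-fold changes (398 names), and the arm test 89.7% of 4-fold changes (169 hairpins). No simulated library stood apart as r1 does, and arm noise was set the same for all hairpins. Arm changes of 2-fold were not simulated, so recovery in the real libraries may be lower. DESeq2 1.42.0, totals, no low-count filter, relaxed names, other arm settings and each library left out were alternatives. Named were all member arms, the 2 nearest patterns of each dominant arm, seed relatives and up to 4 abundant names of each list. Members and lists were chosen with earlier results of these data known. Names near a call or of a control marker beyond that rule, among them miR-3065 and miR-184, were chosen after their values were seen.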

Additional observations from a re-analysis of the deposited data

How the results depend on the processing

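The 5 calls among 10 member arms numbered 5 with DESeq2 or without a low-count filter, 4 with either kind of total and 6 with relaxed names, where miR-488-3p was also called. With 1 library left out they numbered 3 (without m1) to 6 (without r1). Calls of miR-139-5p, miR-326-3p and miR-342-5p held under all 11 alternatives. Totals moved the median of all names up by 0.36 (shared names) or 0.25 (all names), and of the names called 127 were then higher and 43 lower, or 105 and 44, against 102 and 97. Arms not called changed sign with totals of shared and of all names: miR-338-3p (0.20 and 0.094), miR-338-5p (0.19 and 0.088) and miR-598-3p (0.22 and 0.11). Without r1, miR-342-3p was at -0.17. The cause was not tested. With 1 library left out, the arm ratio difference of miR-338 ran from -0.10 to 0.027 (without r1), with 0.000508 without m4, and the member hairpins called numbered 0 to 1. The call without r4 was miR-488 and not miR-342. Hairpins called over all tested ran from 26 to 63 (27 without m1), against 41. Neighbours apart in the order of tested names were 9 in mouse and 6 in rat, and 9 and 4 after TMM scaling. No paired analysis was possible because the count columns carry no replicate numbers of the labels. Depth limits miR-326-5p, miR-598-5p and miR-488-5p.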
